A study of Mus with 4 samples.

Results

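The actin cytoskeleton genes described here are 32 genes, given as a fixed list of symbols and found by symbol in the matrices of all 4 libraries, out of 31253 genes in each matrix. They comprise the actins Actb and Actg1, 7 genes of actin turnover and monomer binding (Cfl1, Pfn1, Pfn2, Tmsb10, Tmsb4x, Cap1, Coro1c), the 8 genes Arpc1a, Arpc1b, Arpc2, Arpc3, Arpc4, Arpc5, Actr2 and Actr3 of the Arp2/3 complex, the elongation factors Vasp and Enah, the filament-binding and crosslinking genes Tpm1, Tpm3, Tpm4, Flna and Fscn1, the capping and severing genes Capg and Gsn, the membrane linkers Msn, Ezr and Rdx, and Rac1, Cdc42 and Rhoa. The list's rule uses no measured value, but it was drawn up with earlier results of these data known.

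Sensory neurons of the trunk and limbs have their cell bodies in the dorsal root ganglia (DRGs), wrapped by glia. In chronic constriction injury (CCI), a model of nerve injury pain, the sciatic nerve is loosely ligated. The libraries came from L4 and L5 DRGs of wildtype male C57BL/6J mice, 8 weeks old by the study's methods: 2 libraries from mice 3 days after CCI of the left sciatic nerve (CCI replicates 1 and 2) and 2 from naïve mice (CON replicates 1 and 2). Single cells were captured with a 10x Genomics 3′ kit, and the labels call all samples neurons although each library held 7 main cell types by their markers. The sources do not give the number of mice in a library or whether replicates were separate animals, so p-values measure the spread between libraries only.

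Actin monomers assemble into filaments that grow at one end and are taken apart at the other. Profilins and thymosins bind the monomer pool, cofilin severs old filaments, the Arp2/3 complex starts branches, Ena/VASP proteins lengthen filaments, and tropomyosins, fascin and filamin coat, bundle and crosslink them. Ezrin, radixin and moesin tie filaments to the membrane. In sensory neurons these proteins work in the axon, its terminals and the growth cone that an injured axon forms.

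Of 37451 barcodes, 35113 passed the study's stated cell filter, and the deposited libraries held 135009606 and 113530798 UMIs in CCI and 75599766 and 52074235 UMIs in CON (unique molecular identifiers, each counting 1 captured transcript). The 3740 neurons comprised 1495 and 871 cells in CCI and 1097 and 277 cells in CON. A further 8037 barcodes in neuron-like clusters of low UMI count were set apart, and 3493 cells were left unnamed. Each pair of libraries shared 12 to 31 barcodes. The level of neuron markers outside neurons was unequal between libraries: 8 neuron markers, summed in each of the 6 other cell types, reached 28.9 to 50.3% of the neurons' level in CCI replicate 1, 11.5 to 31.2% in CCI replicate 2, 28.4 to 61.6% in CON replicate 1 and 2.17 to 5.53% in CON replicate 2. Levels below are in CPM, each gene's UMIs scaled by the total UMIs of the summed cells of a type in 1 library. Because the kit counts 3′ ends, 1 per molecule, they need no scaling to gene length. Fold changes are log2 values of edgeR's quasi-likelihood test on those sums, scaled by the trimmed mean of M-values (TMM), ± SE, with Benjamini-Hochberg adjustment over all genes tested and a threshold of 0.05. Reads of Actb and Actg1, or of a member and its processed pseudogenes, can be near-identical, so the split between such copies is uncertain.

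The 32 genes made up 3.04% and 3.38% of neuronal UMIs in CCI and 2.55% and 3.02% in CON. Among the 7 cell types they took the largest share in immune cells, with 4.65% and 4.92% in CCI and 3.35% and 4.28% in CON, and the smallest in satellite glial cells, with 1.90% and 1.78% in CCI and 1.60% and 1.53% in CON. Neurons had the highest mean level over the libraries for 4 members, Cfl1, Pfn2, Tmsb10 and Cdc42. Immune cells were highest for 11, endothelial cells for 8, Schwann cells for 3 (Arpc1a, Capg, Fscn1), satellite glial cells for 3 (Arpc1b, Ezr, Rhoa), pericytes for Flna and Tpm1, and fibroblasts for Gsn.

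**Figure D1:**
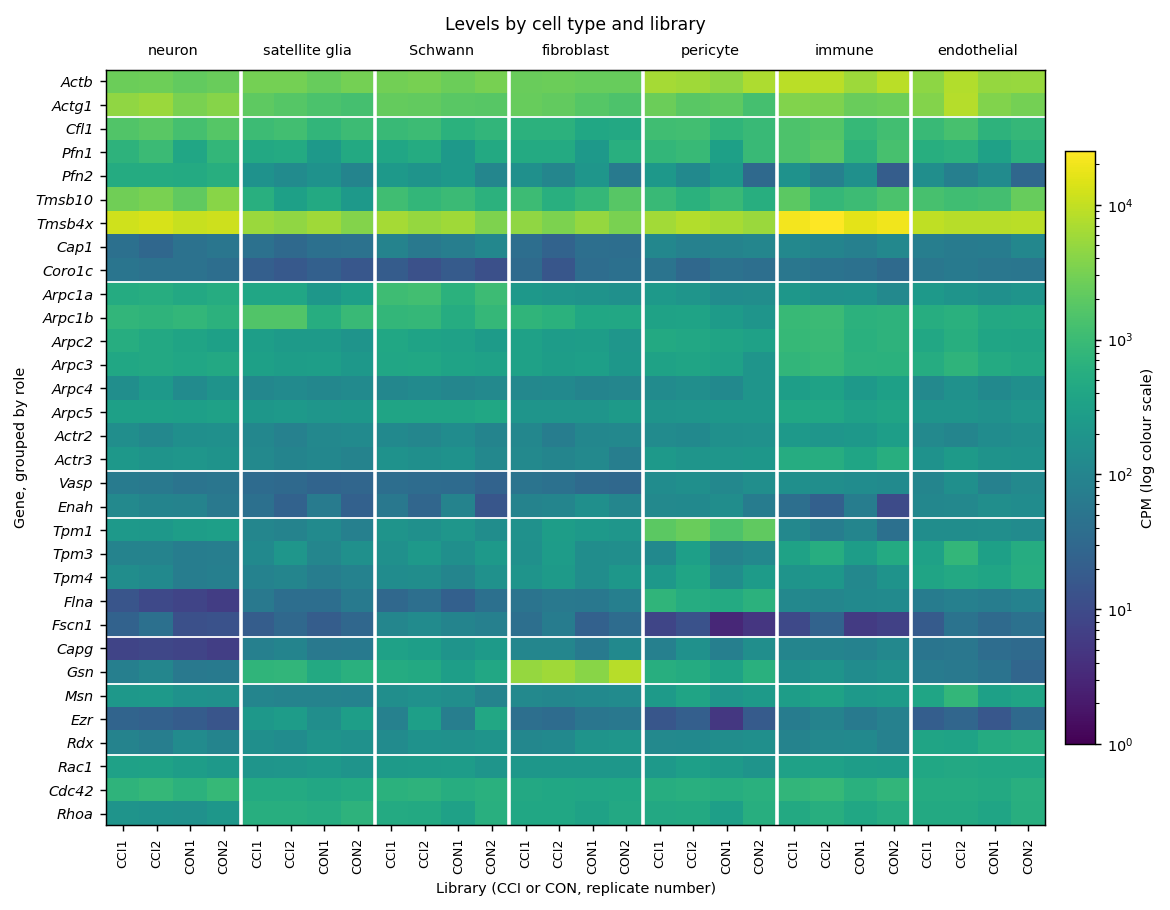
Level of each gene (rows, grouped by role) in each cell type and library (columns, CCI before CON), as CPM on a log colour scale. Gsn stands out in fibroblasts at 4085 to 8260, Tpm1 in pericytes at 1462 to 2501 and Tmsb4x in immune cells at 16279 to 24225.

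Compared with the mean of the 6 other cell types, within libraries, 10 members were higher in neurons and 11 lower, in a comparison in which 74.5% of all genes passed. Pfn2, the profilin known for its abundance in the nervous system, had 512.9 and 505.8 CPM in CCI neurons and 484.0 and 563.0 in CON neurons, against 175.6 and 131.1 in CCI and 173.4 and 97.9 in CON satellite glial cells. Its neuronal level was 2.78 and 4.31 times the mean of the other types in CCI and 2.59 and 9.72 times in CON (log2 difference 2.17 ± 0.21, adjusted p = 2.44e-09). The ratio was highest in the library with the lowest level of neuron markers outside neurons, whose part in it was not tested. Tmsb10, a thymosin that binds monomers, ranged over 2085 to 4102 CPM in neurons, against 240.2 to 587.9 in satellite glial cells (1.70 ± 0.20 over the other types). Arpc1a (0.89), Actg1 (0.80), Cfl1 (0.78) and Tmsb4x (0.69) were higher in neurons too. By mean level over the libraries, Tmsb4x was higher still in immune cells, Arpc1a in Schwann cells and Actg1 in endothelial cells.

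Flna, Capg and Gsn had the largest differences of the 32, all lower in neurons. Flna, the crosslinker filamin A, had 14.6 and 9.51 CPM in CCI neurons and 7.85 and 6.24 in CON neurons, against 485.2 to 748.1 in pericytes (−3.31 ± 0.20 over the other types). Capg, a capping protein, had 6.66 to 8.67 in neurons, against 188.7 to 327.5 in Schwann cells (−3.73 ± 0.19). Gsn, the severing protein gelsolin, lay at 60.9 to 102.7 in neurons (−2.59 ± 0.18), against 4085 to 8260 in fibroblasts. The actins divided in opposite ways: Actb was lower in neurons (−0.84 ± 0.12) and Actg1 higher (0.80 ± 0.14). Actb made up 35.5% and 33.0% of the summed Actb and Actg1 UMIs in CCI neurons and 39.6% and 38.3% in CON neurons, against 70.3 to 84.8% in pericytes. The other members lower in neurons were Ezr (−1.59), Tpm3 (−1.49), Rhoa (−1.41), Tpm4 (−0.92), Rdx (−0.87), Cap1 (−0.78) and Vasp (−0.31), and Coro1c (0.47), Cdc42 (0.40), Arpc5 (0.26) and Pfn1 (0.24) were higher. Cell types were cut from the same cells, with the actin genes left out of the clustering features, so these p-values describe the clusters and are no independent evidence of them.

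The main comparison sets neurons of CCI mice against those of naïve mice. No library came from sham-operated mice, so ligation cannot be told apart from the surgery itself. Fscn1 and Tpm4 rose, both of them filament-binding genes, and no member fell. The 2 calls among 32 members stand beside 5.22% of all 15484 genes tested, with 4.42% higher. Fscn1 (ENSMUSG00000029581, chromosome 5, 142960355 to 142973189 in GRCm38) encodes fascin, which bundles filaments in filopodia. It had 24.1 and 42.8 CPM in CCI neurons, against 11.6 and 13.0 in CON neurons. The CCI values did not overlap the CON values, and they differed from each other by 1.78-fold. The log2 fold change was 1.53 ± 0.28 (adjusted p = 0.0149), with 1.02 left without CCI replicate 2 and 1.92 without CCI replicate 1, each still past the threshold. Tpm4 (ENSMUSG00000031799, chromosome 8, 72135288 to 72153142) encodes a tropomyosin that coats filaments. It had 144.4 and 123.5 CPM in CCI neurons and 72.2 and 79.8 in CON neurons, a log2 fold change of 0.89 ± 0.18 (adjusted p = 0.0226). Without CCI replicate 1 the value was 0.82 with an adjusted p of 0.101. The number of members called was 6 without CON replicate 1, 6 without CON replicate 2, 3 without CCI replicate 2 and 1 without CCI replicate 1.

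**Figure D2:**
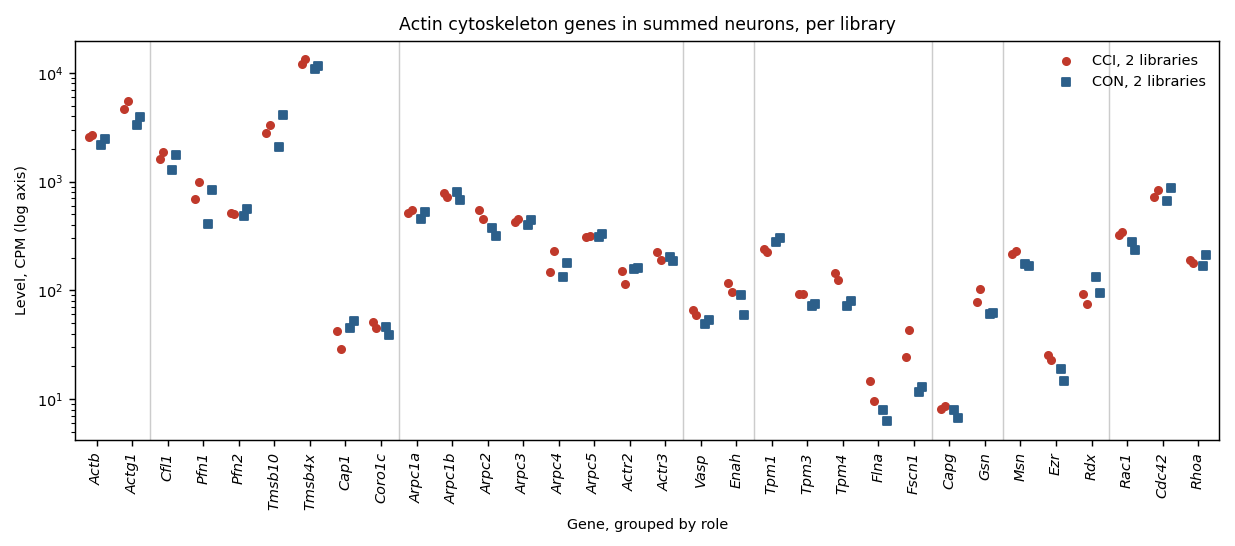
Level of each member in the summed neurons of each library (CPM, log axis, 1 point per library, CCI left of CON). Levels span from 6.24 for Flna to 13443 for Tmsb4x, and the CCI points of Fscn1 and Tpm4 stand clear above their CON points.

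The most abundant members did not pass the test. Tmsb4x, a monomer-binding thymosin and the most abundant member, had 12018 and 13443 CPM in CCI neurons and 10764 and 11445 in CON neurons (0.28 ± 0.20, adjusted p = 0.544). For Actg1 the levels were 4626 and 5455 in CCI, against 3295 and 3936 in CON (0.56 ± 0.21, adjusted p = 0.204). Actb had 2546 and 2691 in CCI neurons and 2157 and 2447 in CON neurons (0.26 ± 0.20, adjusted p = 0.551). All 3 were higher in both CCI libraries, by less than the test required. With the replicate number as a block in edgeR's fit, Actg1 passed (0.56, adjusted p = 0.0179), although the replicate numbers were not shown to pair the libraries. Tmsb10 overlapped between groups, with 2813 and 3294 in CCI and 2085 and 4102 in CON (0.05 ± 0.31, adjusted p = 0.961), and its 2 CON libraries alone differed by 1.97-fold. Leaving out CON replicate 2 put Tmsb10 at 0.68 (adjusted p = 0.0235) and Actg1 at 0.74 (adjusted p = 0.0089), both then past the threshold.

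Over the list, 28 of 32 log2 fold changes were positive with a median of 0.28, against 48.3% positive and a median of −0.01 over all genes tested, and 11 members had an unadjusted p under 0.05, beside 17.9% of all genes. Actr2, Cap1, Tpm1 and Rdx were the 4 with lower levels in both CCI libraries than in both CON libraries, 15 members were higher in both, and 13 overlapped. Over all genes the shares without overlap were 19.7% higher and 29.2% lower. Among the members that missed the threshold, Flna had 14.6 and 9.51 CPM in CCI and 7.85 and 6.24 in CON (0.85, adjusted p = 0.0872), and Arpc2, a core subunit of the Arp2/3 complex, 546.1 and 451.7 in CCI and 372.6 and 317.1 in CON (0.61, adjusted p = 0.109). These levels are relative: they do not tell more transcripts of a gene per neuron from fewer transcripts of other genes. The sums also mix subtypes in unequal parts. NP1-like neurons, a subtype with low Fscn1 described below, were 254 of 1097 and 65 of 277 neurons in CON. In CCI they were 192 of 1495 and 94 of 871, and the part of this make-up in the neuron results was not tested.

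The share of Tpm4 among the tropomyosins was higher in both CCI libraries, a share that was not tested. Tpm4 took 30.2% and 28.0% of the summed UMIs of Tpm1, Tpm3 and Tpm4 in CCI neurons, against 17.0% and 17.5% in CON neurons. Tpm1, the most abundant of the 3 in neurons, had 240.7 and 224.1 CPM in CCI and 280.5 and 302.8 in CON (−0.25, adjusted p = 0.52), and Tpm3 92.4 and 93.1 in CCI and 72.2 and 74.8 in CON (0.41, adjusted p = 0.247).

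The study names a CCI-induced neuronal population (CIP). Part of the CCI neurons formed clusters like it here, recognised by the injury-response genes Atf3, Sprr1a, Camk1, Flrt3 and Gpr151. These CIP-like clusters held 344 and 201 cells in CCI and 5 and 1 in CON. Their sums were set against those of the other neurons in each CCI library, and the fit kept the library as a block. Of the 32 members, 27 were higher in CIP-like neurons, Capg was lower, and Pfn2, Arpc1a, Arpc1b and Rdx did not pass, in a comparison in which 57% of all 14879 genes passed (4117 higher, 4370 lower). The 32 genes together took 3.99% and 4.48% of the CIP-like UMIs, above every other neuron subtype of those libraries. Summed markers of satellite glial cells were at 1085 and 1502 CPM in CIP-like neurons and 1056 and 1262 in other neurons, and those of immune cells at 9.87 and 66.1 in CIP-like neurons and 8.89 and 30.1 in other neurons, and their part in the result was not tested.

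Of the members higher in CIP-like neurons, Fscn1 and Tpm4 again had the largest differences. Fscn1 had 42.4 and 97.9 CPM in CIP-like neurons, against 16.4 and 23.7 in the other neurons of the same libraries (1.92 ± 0.12, adjusted p = 3.31e-09). Tpm4 had 243.9 and 221.7 in CIP-like neurons and 102.5 and 89.4 in other neurons (1.49 ± 0.08, adjusted p = 8.71e-10). Fscn1 differed between the subtypes described below, with means over the libraries of 15.2 CPM in PEP1-like and 63.0 in SST-like neurons. The part of the subtype mix of the other neurons in these differences was not tested. Next among the higher members was Arpc2, with 830.7 and 705.1 in CIP-like neurons and 426.3 and 363.7 in other neurons (1.16 ± 0.09, adjusted p = 2.98e-08). Other subunits of the same complex spread widely: Arpc4 was at 0.82, Arpc5 at 0.66, Arpc3 at 0.37, Actr3 at 0.29 and Actr2 at 0.22, while Arpc1a (0.07) and Arpc1b (−0.17) did not pass. For Actr2, at 148.9 and 116.1 in CIP-like neurons and 150.1 and 112.6 in other neurons, the unscaled levels differed in opposite directions in the 2 libraries. Its call was lost with DESeq2 (adjusted p = 0.0619), without scaling factors (0.866), without the filter on low counts (0.0705) and without the library block (0.376). Without CCI replicate 1 its value was −0.071, in a fit that added the CON neurons to the other neurons and had no block.

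The abundant genes were higher here as well. Tmsb4x had 17040 and 19164 CPM in CIP-like neurons and 9904 and 11456 in other neurons (0.97 ± 0.12). Tmsb10 had 3851 and 4594 in CIP-like neurons and 2377 and 2843 in other neurons (0.90 ± 0.10), and Actg1 6212 and 7129 in CIP-like neurons and 3958 and 4874 in other neurons (0.81 ± 0.11). Actb, with 3283 and 3624 in CIP-like neurons against 2236 and 2367 in other neurons, stood at 0.79 ± 0.10. Tpm3 was at 0.99, Flna at 0.90, Enah at 0.88, Ezr at 0.84, Rac1 at 0.79, Pfn1 at 0.73, Vasp at 0.59, Rhoa at 0.58, Cfl1 at 0.53, Gsn at 0.49, Cap1 at 0.45, Msn at 0.36, Coro1c at 0.35 and Cdc42 at 0.33. Tpm1 passed at 0.23, but its unscaled levels of 254.3 and 217.4 in CIP-like neurons and 235.1 and 226.4 in other neurons differed in opposite directions in the 2 libraries, and the call was lost without scaling factors (adjusted p = 0.748), without the filter (0.0595) and without the library block (0.229). Without CCI replicate 1 the value was −0.085 for Tpm1 and −0.15 for Cap1, in a fit that added the CON neurons and had no block. In CCI replicate 2 itself, Cap1 had 32.1 CPM in CIP-like neurons and 27.8 in other neurons. The call of Cap1 was also lost without the block (adjusted p = 0.168). The subtypes described below differed in Capg, from 3.79 CPM in PEP1-like and 4.03 in NP1-like to 31.4 in SST-like neurons (means over the libraries). The part of their mix in the level of the other neurons was not tested. Capg had 4.40 and 3.06 in CIP-like neurons and 9.56 and 10.6 in other neurons (−1.18 ± 0.17). With CON neurons added and no block, its value was −0.62 without CCI replicate 2 and −1.24 without CCI replicate 1, neither past the threshold.

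**Figure D3:**
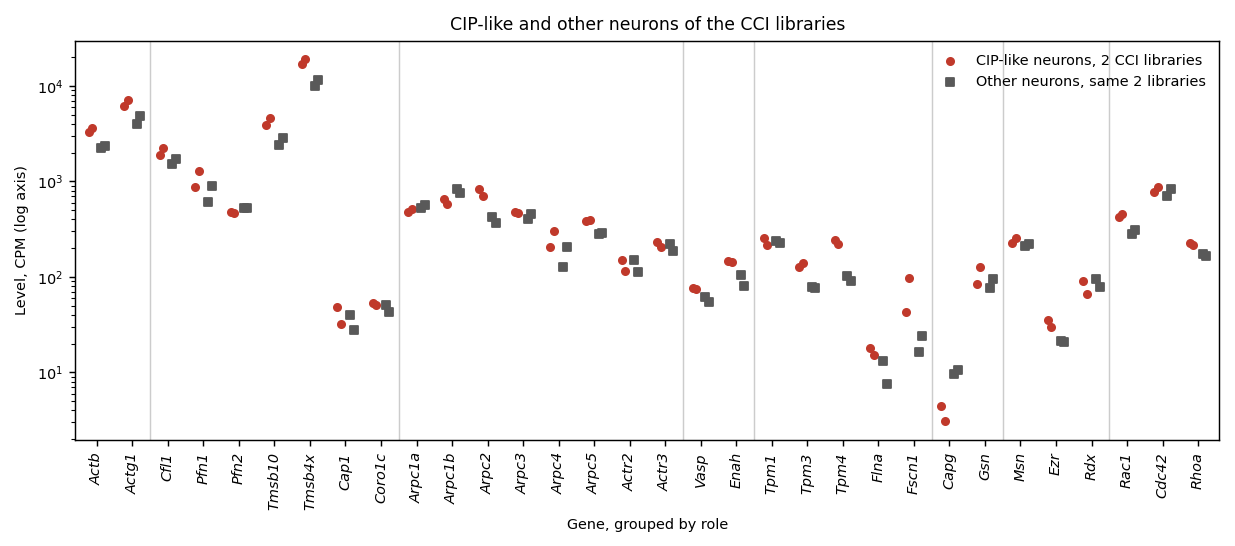
Level of each member in CIP-like neurons and in the other neurons of the same 2 CCI libraries (CPM, log axis, 1 point per library). Fscn1 and Tpm4 show the widest upward gaps, at 42.4 and 97.9 against 16.4 and 23.7 for Fscn1, and Capg shows the widest downward gap, at 4.40 and 3.06 against 9.56 and 10.6.

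The CIP-like neurons' own levels were at or above those of the other neurons in both libraries for 25 members, below in both for 5 and mixed for Actr2 and Tpm1, whereas the fitted fold changes, which include the TMM factors, were positive for 30. Without scaling factors 20 members were higher and 2 lower (Capg and Arpc1b), and all genes split into 2654 higher and 6259 lower. Without CCI replicate 1 or without CCI replicate 2, in fits with the CON neurons added and no block, 11 members passed each time, all of them higher. The clusters were cut from these cells with the 32 genes left out of the features, but other injury genes were features, so the p-values describe the clusters.

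With the CIP-like clusters set aside, no member passed between CCI and CON in the remaining neurons by edgeR or by DESeq2, beside 1.49% of 15218 genes, and 4 members had an unadjusted p under 0.05, beside 9.72% of all genes. Fscn1 had 16.4 and 23.7 CPM in CCI and 11.6 and 12.7 in CON (0.75, adjusted p = 0.283), and Tpm4 102.5 and 89.4 in CCI and 72.1 and 78.2 in CON (0.37, adjusted p = 0.594). For both genes the CCI and CON values did not overlap. Without CON replicate 2 the members past the threshold were Fscn1 and Pfn1, and without CCI replicate 1 Fscn1 alone. These neurons still carried injury markers: the 5 CIP markers summed to 745.9 and 1021 CPM in CCI and 156.0 and 96.1 in CON.

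**Figure D4:**
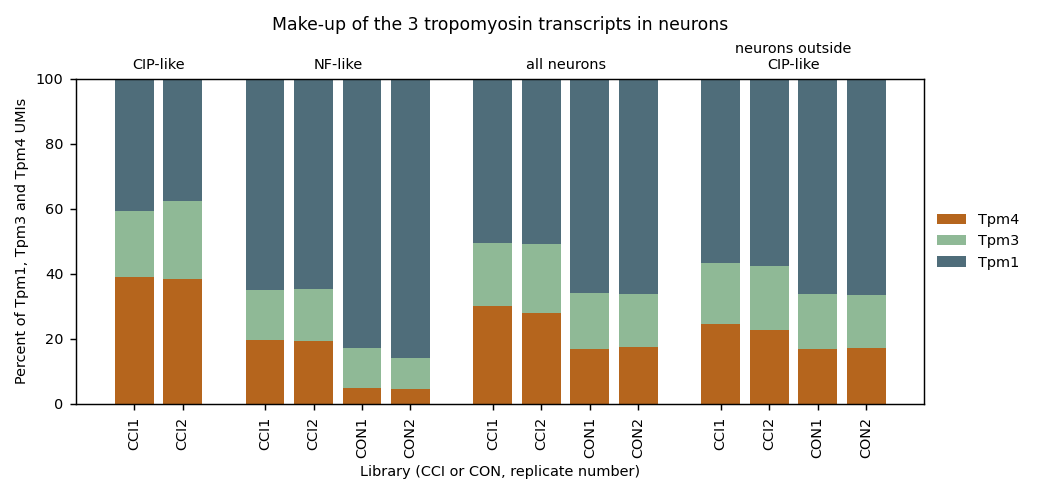
Share of Tpm4, Tpm3 and Tpm1 in their summed UMIs (percent), per library, in CIP-like neurons, NF-like neurons, all neurons and neurons outside the CIP-like clusters. Tpm4 takes 39.0% and 38.3% in CIP-like neurons of CCI, and 19.7% and 19.2% in NF-like neurons of CCI against 4.88% and 4.71% in NF-like neurons of CON.

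Other neurons were named by markers as neurofilament (NF)-like, non-peptidergic (NP1- and NP2-like), peptidergic (PEP1- and PEP2-like), C-low-threshold mechanoreceptor (cLTMR1-like), SST-like and TRPM8-like. Only NF-, NP1-, PEP1- and cLTMR1-like neurons had at least 20 cells in each library and were tested, each against the mean of the other 3 within libraries. As with the cell types, these p-values describe clusters cut from the same cells. NF-like neurons, the large myelinated class, had 5 members higher and 15 lower, beside 58.4% of all 12860 genes. Enah, which protects growing filament ends from capping, had 341.4 and 301.6 CPM in CCI and 426.5 and 309.1 in CON NF-like neurons, against 33.7 and 25.7 in CCI and 38.1 and 24.3 in CON NP1-like neurons. Its difference from the other subtypes was 2.93 ± 0.10 (adjusted p = 8.32e-14), and Capg (2.05), Fscn1 (1.60), Tmsb4x (0.27) and Actr2 (0.19) were the others higher. Tpm4 (−1.19), Arpc5 (−1.05) and Rhoa (−0.89) were among those lower in NF-like neurons.

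NP1-like neurons, which innervate the skin and express Mrgprd, had 19 members higher and 6 lower, beside 57.3% of all genes. Arpc1b was highest there, with 1414 and 1595 CPM in CCI and 1263 and 1233 in CON, against 448.6 and 393.9 in CCI and 402.3 and 296.3 in CON NF-like neurons (1.69 ± 0.08 over the other subtypes). Its paralogue Arpc1a differed less (0.58), and Arpc1b took 65.5 to 72.4% of the pair in NP1-like neurons. Arpc5 (1.00), Tpm1 (0.84), Pfn1 (0.77) and Tmsb4x (0.73) were higher too, while Fscn1 (−2.02) and Enah (−1.53) were lower. Fscn1 was at 0.33 to 3.69 CPM in NP1-like neurons and at 0.92 to 2.16 in cLTMR1-like neurons.

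PEP1-like neurons, which carry the peptides encoded by Tac1 and Calca, had 7 members higher and 6 lower, beside 51.9% of all genes. Fscn1 (2.40) was higher, with 12.0 and 17.3 in CCI and 16.3 and 15.1 in CON, as were Gsn (1.95), with 109.6 and 149.4 in CCI and 107.3 and 143.7 in CON, and Ezr (1.01). Capg (−1.43), Tpm1 (−1.27) and Tmsb4x (−1.22) were lower. In cLTMR1-like neurons, unmyelinated cells tuned to light touch, 4 members were higher and 12 lower, beside 48.5% of all genes. Tpm1 (0.74), Arpc2 (0.73), Rdx (0.62) and Arpc5 (0.32) were the higher ones, and Fscn1 (−1.97), Enah (−1.39) and Flna (−1.11) the lowest. Among all 8 of these subtypes the highest mean level lay in SST-like neurons for 9 members, including Fscn1 (44.4 to 79.4 CPM) and Tpm4 (95.5 to 163.3), and in NP1-like neurons for 7. SST-, TRPM8-, PEP2- and NP2-like neurons had too few cells in a library for a test.

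**Figure D5:**
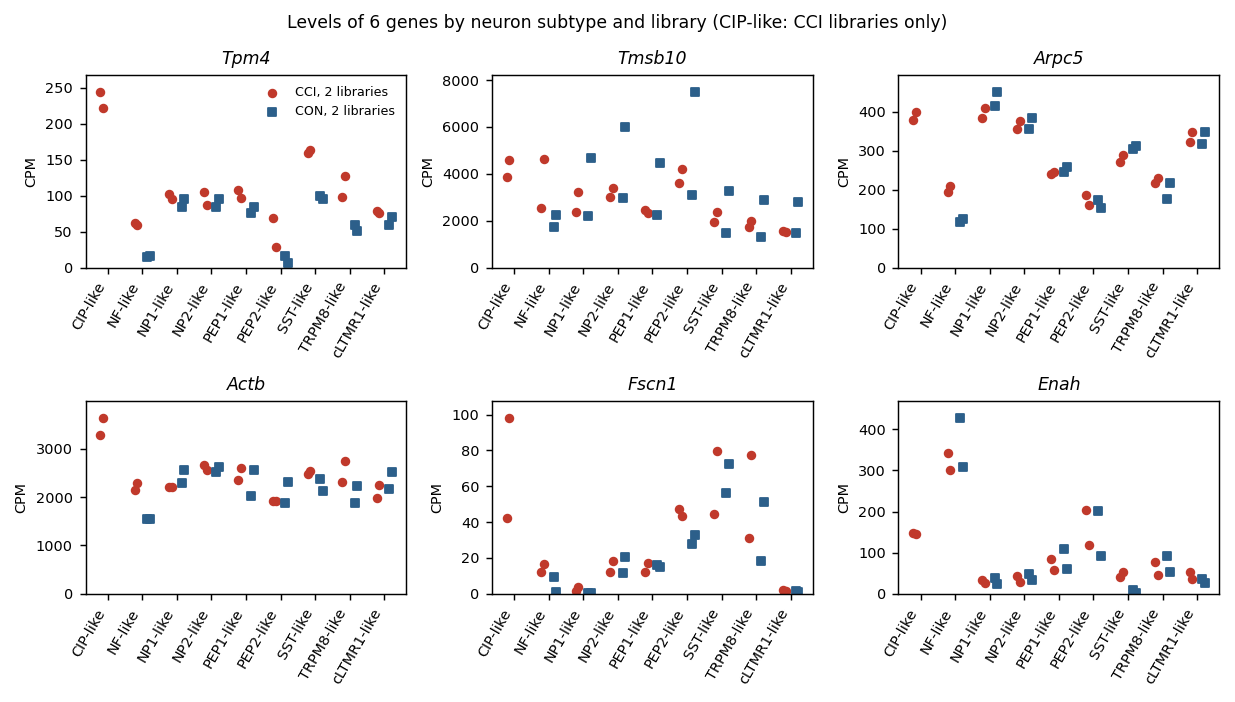
Levels of 6 members (CPM, linear axes from 0, 1 point per library, CCI left of CON) in CIP-like neurons of the CCI libraries and in 8 other subtypes. Tpm4 in NF-like neurons lies at 62.3 and 59.1 in CCI and 14.4 and 16.4 in CON, and Enah is highest in NF-like neurons of both groups.

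Within subtypes, Tpm4 rose in CCI in NF-like neurons and was the single member called there, beside 3.79% of all genes. It had 62.3 and 59.1 CPM in CCI (267 and 241 UMIs), against 14.4 and 16.4 in CON (31 and 28 UMIs), with no overlap and little spread within a group (2.07 ± 0.31, adjusted p = 7.08e-05). The call held with each library left out in turn, at 1.93 to 2.21, while the number of member calls over the 4 subtypes was 5 without CON replicate 1, 4 without CON replicate 2 and 4 without CCI replicate 1. In NP1-, PEP1- and cLTMR1-like neurons no member passed edgeR's test, beside 0.294%, 0.0469% and 0.0629% of all genes, with 3, 0 and 1 members at an unadjusted p under 0.05, beside 6.45%, 3.75% and 3.98% of all genes at that level. Fscn1 was too low to be tested in cLTMR1-like neurons. DESeq2 called Gsn in NP1-like neurons and no member in the other 2. In the untested SST-like neurons Tpm4 had 158.9 and 163.3 in CCI and 99.8 and 95.5 in CON, and in TRPM8-like neurons 98.0 and 126.8 in CCI and 59.5 and 51.2 in CON. In PEP2-like neurons, with 3 cells in CON replicate 2, Tpm4 took 21.7% and 11.0% of summed Tpm1, Tpm3 and Tpm4 UMIs in CCI. Its share there was 5.66% and 2.34% in CON. In NP2-like neurons the Tpm4 share was 23.9% and 21.8% in CCI and 21.6% and 21.25% in CON.

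Whether the effect itself differed was tested as an interaction, a test chosen after the data were seen. The CCI effect in NF-like neurons exceeded the mean effect in the other 3 subtypes for Tpm4 (1.79 ± 0.20, adjusted p = 4.62e-05), Tmsb10 (1.19 ± 0.24, adjusted p = 0.0115), Arpc5 (0.85 ± 0.16, adjusted p = 0.00563) and Actb (0.63 ± 0.16, adjusted p = 0.0478), beside 2.12% of all genes. Arpc5 had 194.7 and 208.9 CPM in CCI and 116.5 and 125.3 in CON NF-like neurons, and Actb 2147 and 2294 in CCI and 1551 and 1553 in CON. Tmsb10 there had 2547 and 4615 in CCI and 1749 and 2261 in CON, while its level in CON replicate 2 was above both CCI libraries in NP1-, PEP1- and cLTMR1-like neurons. Without CON replicate 2 the adjusted p was 0.239 for Tmsb10, 0.122 for Arpc5 and 0.517 for Actb. Arpc5 also missed the threshold without CON replicate 1 (0.083), Tmsb10 without CCI replicate 2 (0.0763) and Actb without any 1 library, and Tpm4 passed in each of these fits. No member differed for NP1-, PEP1- or cLTMR1-like neurons by the same test, beside 0.0517%, 0.0812% and 0.096% of all genes and with 5, 2 and 6 members at an unadjusted p under 0.05, beside 4.99%, 4.87% and 6.34% of all genes at that level. Injury markers moved with this result: the 5 CIP markers summed to 2403 and 2417 CPM in CCI and 92.3 and 55.6 in CON NF-like neurons, against 227.5 and 314.5 in CCI and 93.2 and 62.3 in CON NP1-like neurons. Neurons of the CIP-like clusters were left out of all these subtype sums, and their subtype of origin was not determined. The part of the injury markers and of this labelling in the result was not tested.

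Outside neurons, no member passed between CCI and CON in satellite glial cells, Schwann cells, fibroblasts, pericytes, immune cells or endothelial cells by edgeR or DESeq2. The share of all genes passing was 0.0076% in satellite glial cells and 0 in the others, so few genes of any kind passed there. At an unadjusted p under 0.05 there were 5 members in satellite glial cells, 3 in fibroblasts, 1 each in endothelial cells and pericytes and 0 in Schwann and immune cells. The share of all genes at that level was 2.87% in satellite glial cells, 4.84% in fibroblasts, 3.29% in endothelial cells, 2.09% in pericytes, 1.97% in Schwann cells and 3.68% in immune cells. The members' median log2 fold changes were 0.21 to 0.36, against −0.05 to 0.03 for all genes. The level of neuron markers in these types differed between the libraries, as given above, and its part in these values was not tested. No member's CCI effect in neurons differed from that in any of the 6 other types by edgeR, with 1 or 2 members at an unadjusted p under 0.05 in each, beside 2.72 to 5.79% of all genes. The share of all genes that differed was 0.0803% against satellite glial cells, 0.00669% against Schwann cells, 0.0669% against fibroblasts, 0.0468% against pericytes, 0.141% against immune cells and 0.107% against endothelial cells. Without CON replicate 1 there were 3 member calls over these comparisons. DESeq2 called Fscn1 against endothelial cells.

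A wider list of 117 further actin genes, in 10 groups of the same pathway, was counted in the same fits. In CCI against CON neurons 9 of 111 tested rose and none fell, beside 4.42% of all genes that rose. The 5 with the largest changes were Rnd1 (2.59 ± 0.41), Rhoc (2.05 ± 0.23), Myo10, the motor that carries cargo to filopodial tips (1.92 ± 0.20), Eps8, a barbed-end capper (1.86 ± 0.30), and Rhoq (1.65 ± 0.18). Rhoc, a close relative of Rhoa, had 262.1 and 301.4 CPM in CCI neurons and 59.5 and 83.6 in CON neurons, whereas Rhoa had 189.7 and 177.9 in CCI and 167.9 and 212.2 in CON (0.02, adjusted p = 0.972). Zyx (1.34), Cttn (1.01), Dbn1 (0.91) and Twf2 (0.82) were the other 4 that rose.

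In CIP-like neurons 51 of the 111 were higher and 27 lower, beside the 57% of all genes that passed in either direction. Myo10 had 134.7 and 114.4 CPM in CIP-like neurons and 17.9 and 16.1 in the other neurons of CCI (3.08 ± 0.09), and Eps8 16.6 and 11.9 in CIP-like neurons and 2.13 and 1.70 in other neurons (3.10 ± 0.15). Scin (−2.99), a severing protein, Diaph3 (−2.71), a nucleator, and Tln2 (−2.06), an adhesion adaptor, were among the lower ones. Outside the CIP-like clusters Rnd1 was the single gene called between CCI and CON, at 1.83 and 1.92 in CCI and 0.40 and 0.21 in CON (2.60 ± 0.42, adjusted p = 0.0146), and it did not differ past the threshold between CIP-like and other neurons (0.18, adjusted p = 0.608). In NF-like neurons 6 of 101 tested rose in CCI, beside 3.79% of all genes called in either direction, among them Flnc (4.27), Rhoc (2.93), Rhoq (2.05) and Myo10 (1.75).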

How the data were processed

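The deposited matrices held UMI counts per gene and barcode for 4 libraries. Per the file headers and the study's methods, the authors filtered reads with fastp and counted them with Cell Ranger 5.0.1 on mm10 with Ensembl 100, and the submitters' processing notes also name CASAVA 1.8 and Seurat. The labels describe collagenase digestion and cryopreservation and the methods Liberase and papain. The methods also describe downsampling to an aggregated matrix, but the library totals differed and no normalization is evident in the matrices used here.

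Following the methods, cells needed over 500 genes and less than 20% of UMIs from mitochondria, and the 13 mitochondrial genes were then dropped. Cells were clustered with Seurat 5.3.0 and sctransform 0.4.2 (anchor integration, 2000 features without 149 actin genes, 10 components, resolution 0.8). No doublet caller was run. A cluster was named from at least 4 markers at 1.5 times the mean of other cells, a neuron subtype from at least 3 and CIP-like from at least 4 of 5, and neuron-like clusters of low median UMI count were set apart. The naming thresholds and the test of CCI effects between subtypes were set after the data were seen, and the members, lists and markers were chosen with earlier results of these data known. Values per library were to be given for members past a threshold and for Actb, Actg1, Tmsb4x and Tmsb10, and of each pathway list for up to 4 called genes with the largest change. Values of other members were chosen after they were seen.

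Counts were summed per library and label and tested with edgeR 4.0.16 (R 4.3.3, limma 3.58.1; TMM, filterByExpr, adjusted p threshold of 0.05), after the scripts had been tested on simulated data. Alternatives were DESeq2 1.42.0, upper-quartile or no scaling factors, no low-count filter, leaving out each library, a replicate block, stricter cells (more than 1000 genes, under 10% mitochondrial UMIs), added low-UMI barcodes and clusters without integration. Both the UMI counts and the spread between libraries set the precision, and each member had at least 178 UMIs in each library's neurons. Gene positions are RefSeq's on GRCm38.p6, where 32 of 32 symbols matched.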

Additional observations from a re-analysis of the deposited data

Results flagged for a closer look

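The CCI effect differed between neuron subtypes for 4 members, by an edgeR interaction test of NF-like neurons against the mean of NP1-, PEP1- and cLTMR1-like neurons. The difference was 1.79 on the log2 scale for Tpm4, 1.19 for Tmsb10, 0.85 for Arpc5 and 0.63 for Actb, with adjusted p-values of 4.62e-05, 0.0115, 0.00563 and 0.0478. Over the alternatives the Tpm4 difference ran from 1.73 to 1.84, past the threshold each time. Actb missed the threshold with upper-quartile factors (adjusted p = 0.054), without scaling factors (0.058), with stricter cells (0.0533) and with any library left out (0.0994 to 0.517). Tmsb10 and Arpc5 also missed the threshold in fits with a library left out, as given above. The neurons of the CIP-like clusters were in none of these subtype sums. Their absence, the CIP markers that stood beside this result and the number of NF-like cells (106 and 85 in CCI, 71 and 33 in CON) were not tested for a part in it.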

How the results depend on the processing

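Over the alternatives, the number of members past the threshold in CCI against CON neurons was 2, and 5 with DESeq2, 5 without the filter on low counts and 1 to 6 with a library left out. Outside the CIP-like clusters it was 0, and 1 without the filter and 0 to 2 with a library left out. Within subtypes it was 1, and 2 with DESeq2, 4 without the filter and 1 to 5 with a library left out. It stayed 0 in non-neuronal types under every alternative that could be fitted; without integration Schwann and satellite glial cells could not be compared. For CIP-like neurons it was 28, and 16 without the library block and 11 with either library left out. For CCI effects between neurons and other types it was 0, and 1 with DESeq2, 1 without scaling factors, 1 without the filter and 0 to 3 with a library left out, and between subtypes 4, then 7 without the filter and 1 to 4 with a library left out. The 21 and 74 level calls moved by less than 1.5 times. Counts of all genes were: neurons 808, 1725 without the filter, 710 to 1668 with a library left out; outside CIP-like clusters 226, 696 and 323 to 661; subtypes 467, 1230 and 540 to 1165; non-neuronal types 1, 433 and 9 to 429, and 103 with DESeq2; CIP-like 8487, 4842 without the block and 2535 to 2896; neurons against other types 67, 274 and 4 to 1371, 244 with DESeq2, 108 without scaling factors and 101 with stricter cells; between subtypes 318, 939 and 115 to 401.

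The replicate numbers were not shown to pair the libraries: with only 2 pairs, the correlation of replicate differences between CON and CCI neurons was 0.53 over 5201 genes. With the replicate number as a block, 12 members and 2334 genes passed in neurons, 1 and 510 outside the CIP-like clusters, 3 and 883 within subtypes, and 0 and 4 in non-neuronal types. Tmsb10 in neurons changed sign without scaling factors (−0.019) and without integration (−0.0067), and ran from −0.38 to 0.68 with a library left out. In CIP-like neurons Cap1 (−0.15 to 0.32), Tpm1 (−0.085 to 0.15) and Actr2 (−0.071 to 0.19) turned negative without CCI replicate 1. These fits also added the CON neurons to the other neurons and had no block. Within CCI replicate 2, CIP-like and other neurons were at 32.1 and 27.8 CPM for Cap1 and 217.4 and 226.4 for Tpm1. For Actr2 they were at 116.1 and 112.6. The causes were not tested. A lone library left in a group is assumed to vary like the other group, and 2 libraries per group limit every test.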
